A study of Arabidopsis thaliana with 357 samples.

Results

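The experiment described here asks what the gene DDE2 does to the leaf transcriptome when EIN2 is already lost and PAD4 and SID2 are intact. Its libraries were chosen by genotype label, jePS and JePS, in replicates 1 to 3 and at 7 time points, untreated leaves (0 h) and leaves taken between 1 and 18 h after flg22. They are 42 of the 357 libraries of the series, 21 per genotype and 3 per genotype and time point. The times of harvest after flg22 were 1, 2 and 3 h, and then 5, 9 and 18 h. A capital letter stands for an intact gene and a lower case letter for a mutated one, J for DDE2, E for EIN2, P for PAD4 and S for SID2. JePS is thus the ein2-1 single mutant and jePS the dde2-2 ein2-1 double mutant, so both lack EIN2 and only jePS lacks DDE2. The Arabidopsis thaliana plants were Col-0, 31 to 32 days old, and kept at 22 °C, 75% humidity and a photoperiod of 12 h. Their leaves were infiltrated by syringe with 1 μM flg22, the flagellin peptide that the receptor FLS2 recognises. Leaves at 0 h were left untouched, so a change from 0 h holds the effects of infiltration and of the time of day beside that of flg22. Each library came from leaves of single plants of 4 experiments pooled together, and p-values therefore measure spread between such pools. In the main test (edgeR) this spread was estimated over all 357 libraries in 119 groups, and not only from the 3 pools of each group compared. The comparison without loss of EIN2, jEPS (dde2-2) against JEPS (Col-0), is given only where it shows how the experiment differs from it.

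DDE2 encodes allene oxide synthase, which acts early in the pathway from plastid lipids to jasmonate (JA), and dde2 plants make no JA. JA is conjugated to isoleucine, and the conjugate makes the receptor COI1 bind JAZ repressors, which are then degraded. The bHLH factor MYC2 and its relatives are thereby released and turn on genes that hold a G-box, among them JA biosynthesis and JAZ genes themselves. A second set of JA outputs, the ERF branch, needs ethylene signaling as well, and ethylene signaling passes through EIN2. In leaves JA is best known for wound and herbivore defense, storage proteins and the glucosinolates, sulfur compounds that deter insects. Salicylate (SA), made through SID2 and amplified by EDS1 and PAD4, is the hormone most often described as opposed to JA.

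Libraries held 549986 to 2714817 reads on genes, with a median of 1359258 in jePS and 1128232 in JePS. Transcript levels are given below as normalised read counts, in which the 90th percentile of a library is set to 300, and the 3 values of a genotype follow the order of the replicates. The test was fitted to 11848 genes with enough reads. A gene was called at a time point where edgeR's adjusted p was under 0.05 and the log2 difference was beyond 1 in size. For levels, 4194 of all 11848 genes had an unadjusted p under 0.05 (edgeR) at 1 or more time points. Counts of list genes with such a p, given below, stand beside that number. DDE2 itself (AT5G42650, chromosome 5, 17097564 to 17099595 on the minus strand of TAIR10.1) had levels of 1291, 1310 and 932 in JePS at 0 h and of 65.2, 96.2 and 88.9 in jePS. At 1 h JePS reached 13790, 11300 and 10670, against 184, 171 and 168 in jePS. Every jePS library lay below every JePS library at each of the 7 time points, with log2 differences between -3.59 at 18 h and -8.29 at 2 h. The exact two-sided permutation test gave 0.1 at each time point, the smallest p that 3 libraries against 3 allow. Where the dde2-2 lesion lies relative to the sequenced 3' tags was not examined. EIN2 kept some reads in both genotypes, at 0 h 39.1, 49.4 and 70.2 in JePS and 52.2, 53.9 and 27.8 in jePS against 179, 162 and 189.5 in JEPS, with no overlap to JEPS. Leaf mesophyll markers summed to 16500 to 337000 in jePS and 15700 to 297000 in JePS, 0 of 5 were at 0, and none was called (edgeR; 1 of 5 with an unadjusted p under 0.05, 0 by DESeq2). Phloem markers summed to 474 to 1340 and 483 to 1410, and floral markers to at most 40.4 and 11.5, with 1 of 3 at 0 in every library. Guard cell markers summed to 89.7 to 228 and 75.0 to 275, and 1 of the 2 tested was called lower at 3 h, the potassium channel gene KAT1 with 94.9, 110.3 and 128 in JePS against 43.6, 44.0 and 51.1 in jePS, -1.29 ± 0.35 (log2 ± SE; not called when any 1 of the 3 replicates was left out, -1.34 to -1.22). In leaf tissue, fewer cells of a type and less RNA per cell cannot be told apart.

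More transcripts were called lower than higher without DDE2, and most of the lower calls fell in the first hours after flg22. In jePS 458 genes were called lower than in JePS at 1 or more time points, 3.87% of those tested, and 163 were called higher, 1.38%. At 0 h there were 17 lower genes (0.143%) and 9 higher ones (0.076%). Lower genes were most numerous at 1 h with 298 (2.52%) and at 2 h with 261 (2.2%), and 176 (1.49%) were left at 3 h. Later time points had 143 lower genes (5 h, 1.21%), 93 (9 h, 0.785%) and 36 (18 h, 0.304%). Higher genes numbered 34, 67, 13, 19, 26 and 24 from 1 to 18 h, 0.287%, 0.565%, 0.11%, 0.16%, 0.219% and 0.203%. By libraries alone the sides were closer to even. All 3 jePS libraries lay below all 3 JePS libraries in 400 genes before treatment (3.38%), in 780 at 1 h (6.58%), in 1216 at 2 h (10.3%), and in 533 by 18 h (4.5%). They lay above in 343 (2.9%), 854 (7.21%), 1113 (9.39%) and 661 (5.58%) in the same order. The gap was widest at 3 h, with 1507 below (12.7%) and 960 above (8.1%). Of the 298 genes lower at 1 h, 178 were also lower at 2 h and 27 at 18 h. Of the 34 higher at 1 h, 5 were also higher at 2 h and 2 at 18 h. The libraries of a replicate number came from the same experiments, and with the replicate number as a block, in a fit of the 42 libraries alone, the lower genes came to 678 and the higher genes to 434, with 38 and 29 at 0 h and 79 and 72 at 18 h. The same 42 libraries without the block gave 395 lower and 112 higher genes. Without replicate 1 there were 286 lower and 47 higher genes, and without replicate 3 there were 307 and 95. Of the 21 pairs of libraries with the same number, 15 shared a sequencing lane, and these alone gave 356 lower and 100 higher genes.

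**Figure D1:**
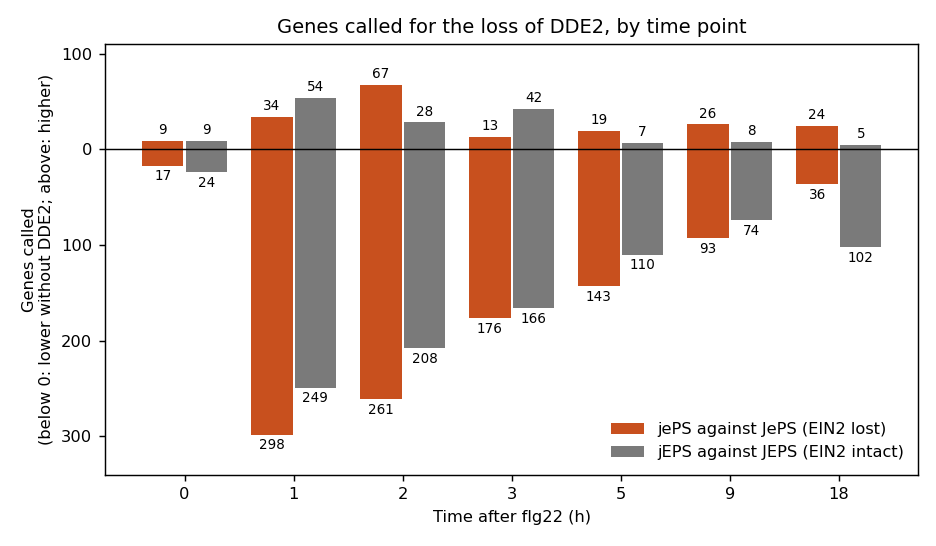
Number of genes called at each time point (h after flg22) for the loss of DDE2 when EIN2 is lost (jePS against JePS, orange) and when EIN2 is intact (jEPS against JEPS, grey). Bars below 0 count genes lower without DDE2 and bars above 0 genes higher. The lower genes peak at 298 and 249 at 1 h, and higher genes stay at 67 or fewer.

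Duration separated the lower from the higher genes. The lower genes included 90 that were called at 4 or more of the 7 time points, 0.76% of those tested, and the higher genes included 4, 0.0338%. Another 217 of the lower and 146 of the higher genes were called at a single time point. Lower at all 7 time points were 12 genes, of which 5 stand on the JA lists described below (DDE2, AOC1, JAZ1, AT5G05600 and CLH1). The other 7, which were chosen after their values were seen, were AT1G52000 and PBP1 (lectin-type proteins), AT1G52410, AT2G34810 (a berberine-type oxidase), AT2G39420 (a hydrolase), AT2G43530 (a knottin-type protein) and NUDT8 (a nudix hydrolase). Their fitted differences ranged from -7.56 to -1.50 on the log2 scale. The first was for AT1G52000 at 2 h, with 467 counts against 2 and a ratio of 239 (95% exact counting interval 65.8 to 1980, counting error only).

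Genes of JA biosynthesis were lower without DDE2 nearly throughout the pathway. Of 17 genes listed, 15 passed the filter on low counts and 12 of these were called lower at 1 or more time points, against 3.87% of all genes tested, and 0 were called higher (edgeR; DESeq2 called 11 lower and 0 higher, and 13 had an unadjusted p under 0.05). From 0 to 18 h the number called lower was 4, 11, 10, 9, 7, 7 and 4 in order of time. DDE2, the gene mutated in jePS, is among the genes of each of these counts. The median log2 difference of the 15 genes went from -0.24 at 0 h to -2.74 at 1 h and -0.82 at 18 h, beside medians between -0.04 and 0.09 over all genes tested. LOX2 (AT3G45140), the main leaf 13-lipoxygenase that feeds linolenate into the pathway, had 3202, 2035 and 1950 in JePS and 1839, 1365 and 889 in jePS at 0 h, where it was not called. At 3 h the values were 7899, 5113 and 6653 in JePS and 114, 180 and 172 in jePS, a difference of -5.41 ± 0.32 (adjusted p 1.7e-32). JePS thus lay above its own 0 h level while all jePS libraries lay far below theirs, and no library of one genotype overlapped the other. LOX3 (AT1G17420), a stress-induced lipoxygenase, still rose in jePS, with 797, 1332 and 1155 at 1 h against 6842, 5850 and 9248 in JePS, -2.74 ± 0.40. LOX4 (AT1G72520) had 4486, 4029 and 3309 against 1765, 1536 and 1197 at 1 h, -1.39 ± 0.34, the only time point at which it was called. With the replicate block it was also called at 9 h, and it was not called when any 1 of the 3 replicates was left out, with -1.42 to -1.37.

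Of the genes for allene oxide cyclases, the enzymes that act right after DDE2, AOC1, AOC2 and AOC3 were lower in jePS. AOC1 (AT3G25760) had 6958, 6013 and 6657 in JePS at 1 h and 243, 446 and 345 in jePS, -4.25 ± 0.29, and was lower at all 7 time points. AOC2 (AT3G25770) had 5715, 4606 and 5693 against 486, 516 and 434 at 3 h, -3.48 ± 0.31, and was lower from 1 to 18 h. AOC3 (AT3G25780) was low at 0 h, with 13.0, 15.2 and 19.0 in JePS and no read in any jePS library, at least 3.35-fold lower against a floor of 3 counts over the group (called, but neither with the replicate block nor when any 1 of the 3 replicates was left out). It then rose in both genotypes, to 8557, 6583 and 7930 in JePS and 768, 921 and 632 in jePS at 1 h, a level difference of -3.31 ± 0.32. AOC4 was not called. AOC1, AOC2 and AOC3 are neighbouring copies, and reads that matched more than 1 gene were dropped by the authors, so levels of these genes may be understated.

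Later steps differed from each other. OPR3 (AT2G06050), the reductase that acts after the cyclases, had 10620, 8769 and 11490 in JePS at 1 h and 443, 714 and 587 in jePS, -4.15 ± 0.25. The genotypes came closer with time, to -1.61 at 9 h and an uncalled -0.82 at 18 h. ACX1 (AT4G16760), an acyl-CoA oxidase of the β-oxidation that shortens the side chain, was called from 1 to 3 h, with 604, 704 and 895 against 127, 272 and 195 at 2 h, -1.92 ± 0.26. The other β-oxidation genes, AIM1 and PED1, were not called. OPCL1 (AT1G20510), which activates the precursor for β-oxidation, was called at 1 h, -1.72 ± 0.40 (not without replicate 1, -1.76; with the block also at 2, 3 and 5 h). JAR1 (AT2G46370), the enzyme that conjugates JA to isoleucine, had 1064, 806 and 491 in JePS and 62.2, 89.3 and 29.0 in jePS at 1 h, -3.71 ± 0.43, and the difference was gone from calls after 2 h. Relative to 0 h, JAR1 rose 4.6-fold in JePS and changed by -1.88 ± 0.45 in log2 terms in jePS at 1 h, opposite directions of which both were called.

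**Figure D2:**
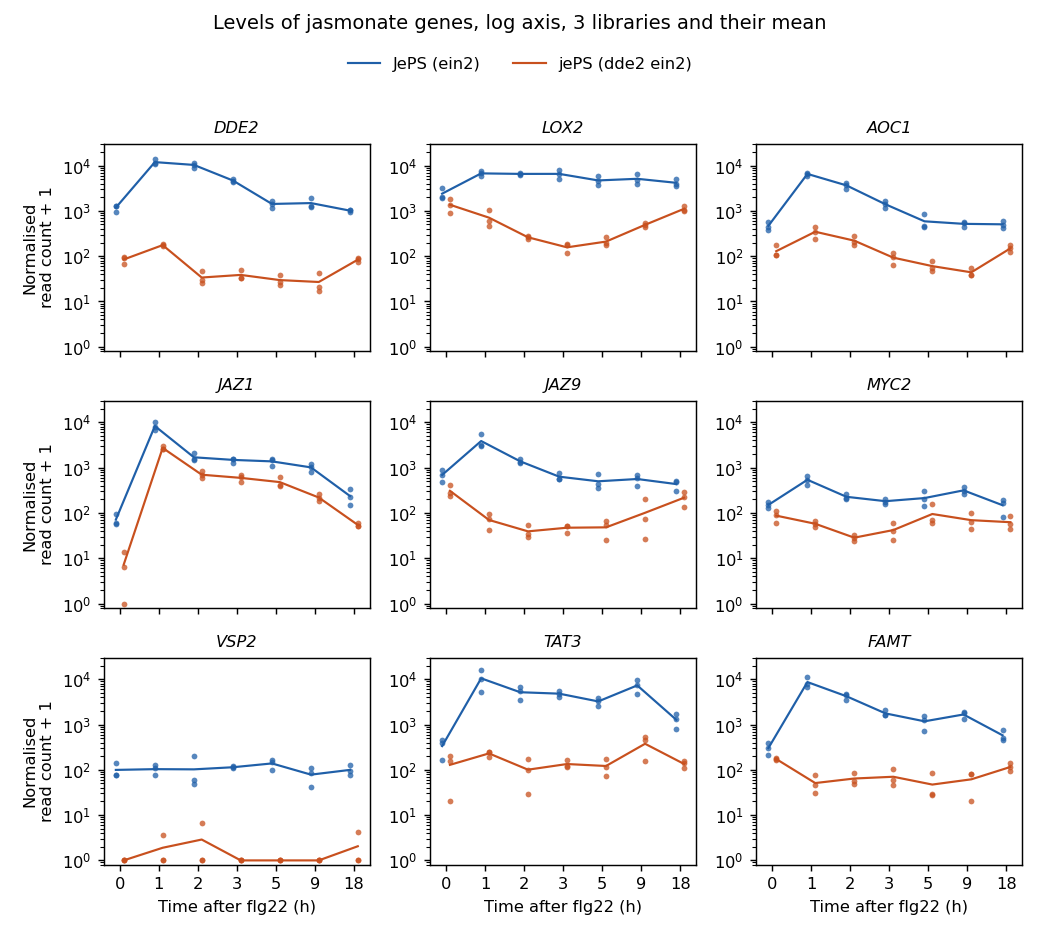
Normalised read count plus 1 (log axis) of 9 jasmonate genes against time after flg22 (h) in JePS (blue) and jePS (orange), with 3 libraries per genotype and time point as dots and their mean as a line. The 2 genotypes separate at 1 h in all 9 genes, and JAZ1 rises in both.

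Among the JAZ repressors were genes that no longer rose after flg22 without DDE2 and genes that still rose. Of 13 listed, 8 passed the filter and 7 were called lower at 1 or more time points, 0 higher (edgeR; 7 and 0 by DESeq2), beside 3.87% of all genes tested. Another 4, JAZ7 (AT2G34600), JAZ8 (AT1G30135), JAZ10 and AT3G22275 (listed as JAZ13), had too many libraries without reads and were fitted under only the rule on the 15th highest count, where all 4 were called lower. JAZ9 (AT1G70700) had 3007, 3111 and 5513 in JePS at 1 h and 40.5, 92.9 and 74.2 in jePS, -5.82 ± 0.40. From 0 h it changed by 2.48 ± 0.35 in JePS and -2.17 ± 0.41 in jePS, so that its course was upward in one genotype and downward in the other. JAZ8 had 941, 806 and 387 against 18.9, 17.9 and 9.68 at 1 h, -5.48 ± 0.60, and JAZ7 774, 613 and 344 against 5.41, 0 and 3.23, 449 counts against 3 and a ratio of 190 (95% exact counting interval 64.6 to 924, counting error only). AT3G22275 had 279.5, 339 and 148 in JePS at 1 h and no read in jePS, at least 82.5-fold lower. For these 4 genes no library of one genotype overlapped the other at 1 h.

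JAZ1, JAZ6 (AT1G72450), JAZ10 and CYP94C1 showed the other pattern, a rise from 0 to 1 h that was called in both genotypes. JAZ1 (AT1G19180) had 58.7, 57.0 and 94.9 in JePS and 13.0, 0 and 5.56 in jePS at 0 h, 74 counts against 3 and a ratio of 15.5 (95% exact counting interval 5.11 to 76.9). At 1 h it had 7919, 6896 and 10120 and 2649, 2568 and 2971, -1.61 ± 0.25, so the genotypes stayed apart while both rose. Its change from 0 h, which in jePS rests on those 3 counts, was larger in jePS by a fitted 2.45 ± 0.74 at 2 h and 2.39 ± 0.74 at 3 h, a call that was lost with the replicate block although the size stayed at 2.38 and 2.33. JAZ10 (AT5G13220) had 1568, 1341 and 1296 against 116, 118 and 96.8 at 1 h, -3.66 ± 0.37. JAZ6 had 4633, 4466 and 3061 against 1457, 1593 and 1126, -1.54 ± 0.31, and CYP94C1 (AT2G27690), which oxidises the JA-isoleucine conjugate, 3999, 3711 and 8148 against 973, 1225 and 2532, -1.75 ± 0.41 under only the rule on the 15th highest count. These 4 genes were chosen after their values were seen, and a rise in jePS was not limited to them. At 1 h 3 of the 8 tested JAZ genes were called above 0 h in jePS and 5 in JePS. Among the 15 tested JA biosynthesis genes the numbers were 8 and 11. Of all genes tested, 19.7% and 20.1% were called above 0 h then. JAZ2 (-3.57 at 1 h), JAZ3 (-3.11) and JAZ5 (-3.92) were also lower, JAZ12 was called at 1 h alone (-1.35; not when any 1 of the 3 replicates was left out, -1.53 to -1.27; with the block also at 2 h), and JAZ11 was not called.

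The G-box CACGTG, which MYC2 and its relatives bind, is shown in DDE2 and in the JAZ genes that hold it, because these genes were called lower. It was searched from 250 bases before to 50 after the annotated gene start, and it reads the same on both strands. It was found in 7.68% of 27443 protein-coding genes, 9.12% of genes tested, 13.0% of genes lower at any time point, 9.94% of genes higher at any, and 14 of the 90 genes lower at 4 or more time points (15.6%). It was found in 5 of 13 JAZ genes (38.5%), all 5 called lower in the fit that held them, and in 2 of 17 JA biosynthesis genes (11.8%), DDE2 and ACX1. The other JA lists described below held it in 1 of 11 breakdown genes (9.09%), 0 of 6 MYC and JAM regulators, 1 of 13 MYC-branch outputs (7.69%) and 1 of 10 ERF-branch genes (10.0%). A match is a description of letters and not a binding site. Sequences are from the TAIR10.1 assembly (RefSeq), 5′ to 3′ on the gene's strand, with the G-box in capitals.
DDE2, chr5:17099574-17099623, minus strand: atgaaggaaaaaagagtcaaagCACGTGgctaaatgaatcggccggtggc
JAZ2, chr1:28150485-28150534, minus strand: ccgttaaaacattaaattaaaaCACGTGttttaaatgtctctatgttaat
JAZ3, chr3:6119545-6119594, plus strand: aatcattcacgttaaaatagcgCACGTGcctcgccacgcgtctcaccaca
JAZ3, chr3:6119603-6119652, plus strand: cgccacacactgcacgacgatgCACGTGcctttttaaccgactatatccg
JAZ7, chr2:14572974-14573023, plus strand: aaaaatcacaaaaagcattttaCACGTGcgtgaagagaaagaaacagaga
JAZ8, chr1:10596320-10596369, plus strand: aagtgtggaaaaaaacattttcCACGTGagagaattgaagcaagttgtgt
AT3G22275, chr3:7879878-7879927, minus strand: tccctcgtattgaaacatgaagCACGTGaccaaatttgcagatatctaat
In these stretches the first base of the G-box stands 6 bases before the gene start in DDE2, 66 in JAZ2, 140 and 82 in JAZ3, 34 in JAZ7, 10 in JAZ8 and 95 in AT3G22275. JAZ1, JAZ5, JAZ6, JAZ9, JAZ10 and JAZ12, which were also lower, held no CACGTG in this window.

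Transcripts for turnover of JA were lower as well. Of 11 genes listed, 5 passed the filter and 5 were called lower, beside 3.87% of all genes tested, and 5 more were called lower under only the rule on the 15th highest count. IAR3 (AT1G51760), an amidohydrolase that cleaves the JA-isoleucine conjugate, had 4224, 3103 and 4130 in JePS at 1 h and 195, 196 and 184 in jePS, -4.31 ± 0.27. Its relative ILL6 (AT1G44350) had 1715, 2053 and 1683 against 40.5, 64.3 and 67.7, -4.98 ± 0.39. AT5G05600 (JOX2), a JA hydroxylase, had 767, 807 and 877 in JePS and 5.46, 12.0 and 0 in jePS at 3 h, -6.90 ± 0.99, and was lower at all 7 time points. All libraries of these genes were separated by genotype at the times given. Its relative JRG21 (JOX3) had no read in any of the 21 jePS libraries, against 129.5, 181 and 302 in JePS at 9 h, at least 63.2-fold lower, and AT2G38240 (JOX4) had 6406, 6450 and 9322 against 54.0, 104 and 158 at 1 h, -6.14 ± 0.53. ST2A (AT5G07010), a sulfotransferase of hydroxylated JA, had 345, 536 and 675 against 8.11, 11.3 and 6.86 at 2 h, -5.96 ± 0.94. JMT (AT1G19640), which makes methyl jasmonate, had 199, 144 and 205 against 10.8, 5.66 and 20.6, -3.66 ± 0.58.

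Of the transcription factors themselves, MYC2 was lower from 1 h on and 3 of its 4 tested relatives were not called. MYC2 (AT1G32640) had 130.4, 148 and 171 in JePS and 58.7, 112 and 88.9 in jePS at 0 h, with no call. At 1 h it had 665, 420 and 535 and 64.9, 57.1 and 48.4, -3.24 ± 0.34, and the libraries did not overlap. JAM1 (AT2G46510), a bHLH repressor of JA responses, was lower at 1 h (-1.97 ± 0.36) and 2 h. MYC4, JAM2 and JAM3 were not called, and MYC3 did not pass the filter. In all, 2 of the 5 genes tested were called lower and 0 higher, beside 3.87% and 1.38% of all genes tested (edgeR; 2 and 0 by DESeq2, 3 with an unadjusted p under 0.05).

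Every tested output of the MYC branch was lower in jePS. Of 13 listed, 6 passed the filter and 6 were called lower, beside 3.87% of all genes tested, and 4 more were lower under only the rule on the 15th highest count. FAMT (AT3G44860), a farnesoic acid methyltransferase, had 385, 209 and 309.5 in JePS and 183, 162 and 172 in jePS at 0 h, not called. At 1 h it had 11090, 7997 and 6861 and 46.0, 75.0 and 29.0, -7.44 ± 0.37 (adjusted p 5.7e-40), so JePS had climbed and jePS had dropped. TAT3 (AT2G24850), a tyrosine aminotransferase, had 10230, 5207 and 15930 against 189, 246 and 252 at 1 h, -5.51 ± 0.57. CLH1 (AT1G19670) had 474, 407 and 283 against 0, 0 and 6.45, which is 299 counts against 2 and a ratio of 190 (95% exact counting interval 52.1 to 1570, counting error only). In this gene the change from 0 h in JePS was -0.37 ± 0.34 and not called. The storage protein gene VSP1 (AT5G24780) had no read in any of the 21 jePS libraries. In JePS it had 112, 127 and 208 at 2 h, and the lower bounds on the fold were 5.87, 39.3, 64.2, 51.6, 57, 35.6 and 12.1 at the 7 time points in order. VSP2 (AT5G24770), its near copy, had 114, 106 and 119 in JePS at 3 h and no read in jePS, at least 29.6-fold lower. TPS04 (AT1G61120), which makes a volatile terpene alcohol, had 620.5, 540 and 644 at 1 h in JePS and no read in jePS, at least 193-fold lower, and NATA1 (AT2G39030), an acetyltransferase that makes acetylornithine, had 201, 201 and 277 at 5 h against none, at least 74.7-fold lower. CORI3, ARGAH2 (an arginase) and ANAC019 (a NAC transcription factor) were lower at 5 to 6 time points, with differences down to -3.93 in ANAC019 at 2 h.

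**Figure D3:**
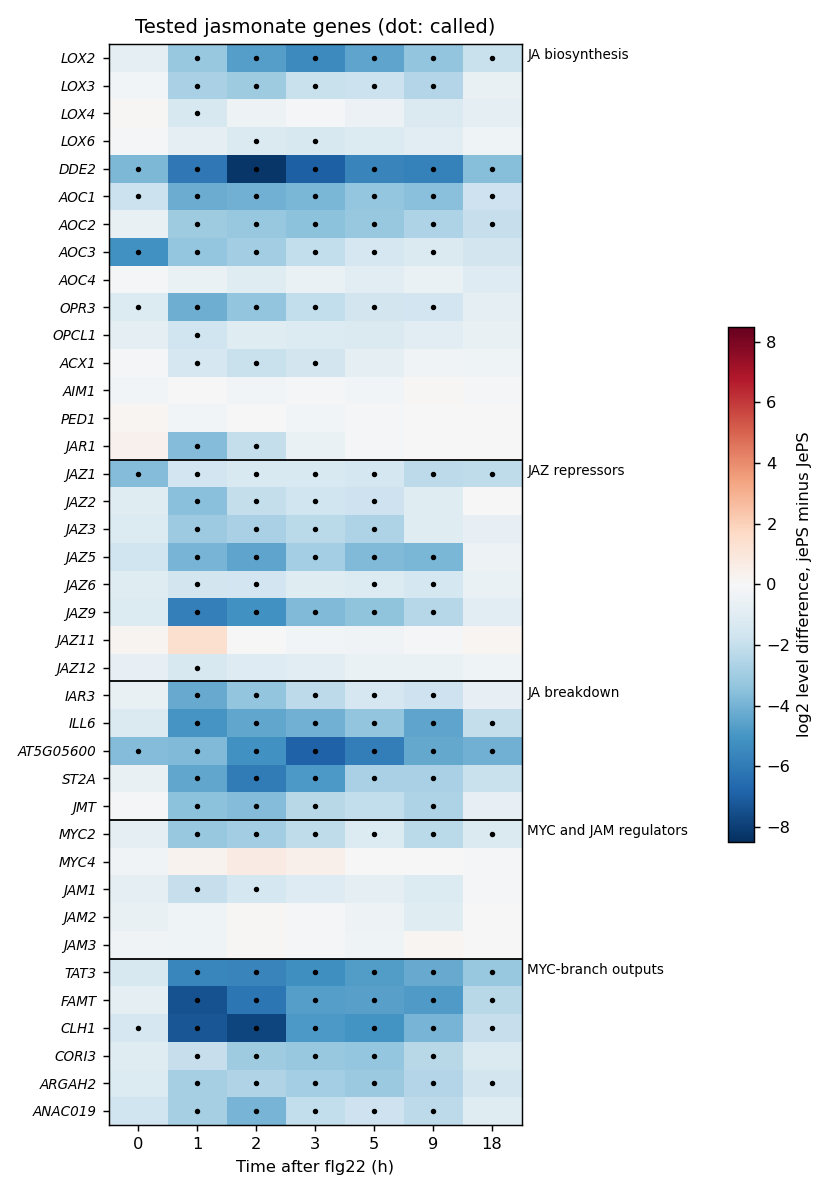
Log2 level difference, jePS minus JePS, of the tested genes of 5 jasmonate lists (rows, grouped by role) at each time point after flg22 (columns, h), where blue is lower in jePS and a dot marks a call. The columns from 1 to 9 h are dark for most rows, the deepest value is -8.29 for DDE2 at 2 h, and the 0 h column holds few dots.

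The ERF branch gave little to compare, because 8 of its 10 genes did not pass the filter. Neither of the 2 tested was called (edgeR; 1 with an unadjusted p under 0.05, 0 by DESeq2; with the block PR4, a chitinase-type gene, was lower at 1 and 5 h, -1.51 and -1.18). Under only the rule on the 15th highest count 3 more were fitted, and 0 were called lower and 1 higher. ORA59 (AT1G06160), the factor that joins JA and ethylene at defensin genes, had 0, 0 and 4.17 in JePS and 27.8, 43.8 and 31.6 in jePS at 18 h, 1 count against 28 and a ratio of 20.1 (95% exact counting interval 3.33 to 823), with no overlap. The defensin gene PDF1.2a (AT5G44420) went the other way at 0 h. It had 17 counts in JePS against 2 in jePS, a ratio of 5.35 (95% exact counting interval 1.27 to 47.7). None of the 7 tested ethylene genes was called by edgeR or by DESeq2. Of the 7, 4 had an unadjusted p under 0.05 (edgeR), beside 4194 of all 11848 genes. With the block 1 was higher, ARL at 1 h.

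Changes from 0 h were next compared between the genotypes. This subtracts the difference at 0 h, so the levels and the spread of the 0 h libraries enter each value. About as many genes changed after flg22 in one genotype as in the other. At some time point 5212 genes (44.0%) fell and 4263 (36.0%) rose in jePS, against 5328 (45.0%) and 4262 (36.0%) in JePS. In 152 genes the change was lower in jePS, 1.28% of those tested, and in 27 it was higher, 0.228%. The lower ones numbered 104, 86, 48, 25, 15 and 1 from 1 to 18 h, or 0.878%, 0.726%, 0.405%, 0.211%, 0.127% and 0.00844%. The higher ones numbered 10, 7, 4, 4, 4 and 7, or 0.0844%, 0.0591%, 0.0338%, 0.0338%, 0.0338% and 0.0591%. With the replicate block, fitted to the 42 libraries alone, the totals were 315 lower and 150 higher, against 108 and 7 in those libraries without it. Leaving out a replicate gave 63 to 84 lower and 4 to 12 higher, with the smallest counts without replicate 3, and 72 and 10 without replicate 1.

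Many of the JA transcripts above also had a lower response. On the JA lists the response was lower in 8 of 15 biosynthesis genes, 2 of 8 JAZ genes, 4 of 5 breakdown genes, 1 of 5 regulators and 4 of 6 outputs (5 with the block), beside 1.28% of all genes tested. FAMT had the largest difference among these, -6.64 ± 0.51 at 1 h, where the change from 0 h was 4.85 ± 0.32 in JePS and -1.78 ± 0.40 in jePS. LOX2 differed by -4.60 ± 0.43 at 3 h and DDE2 by -4.50 ± 0.48 at 2 h. Outside the lists, FLR1 (AT3G12145), a leucine-rich repeat protein gene, had 105, 109.6 and 154 in JePS and 2.70, 0 and 1.71 in jePS at 2 h, 148 counts against 2 and a ratio of levels of 75.8 (95% exact counting interval 20.6 to 632), and its response was called lower. MYB74 (AT4G05100), a MYB factor, had 300, 219 and 452 against 32.4, 25.0 and 41.9 at 1 h, with a response difference of -5.01 ± 1.43. That response rests on few counts at 0 h, 3 in JePS and 7 in jePS. The ratio of jePS to JePS there was 3.71 (95% exact counting interval 0.847 to 22.2). AT1G66100, a thionin gene, fell in both genotypes and fell further in jePS, from 1989, 1469 and 2167 at 0 h to 5.77, 16.9 and 0 at 9 h, against 4291, 3038 and 2267 and 184, 329.7 and 458 in JePS, a response difference of -4.29 ± 0.69. It was the 1 gene whose response was lower at 18 h (-3.43 ± 0.51). NSH3 (AT5G18860), a nucleoside hydrolase, differed at 9 h (-3.79 ± 1.02). AT1G14340, an RNA-binding protein gene, differed at 3 h (-3.91 ± 1.14) with a jePS level that was higher at 0 h, 65.2, 88.5 and 178 against 0, 19.0 and 30.4. MYB74, NSH3 and AT1G14340 were not called when any 1 of the 3 replicates was left out, with values of -5.59 to -4.66, -4.23 to -3.41 and -4.28 to -3.79.

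Responses that were higher in jePS were few, and JAZ1 was the 1 gene of the JA lists among them. DIN10 (AT5G20250), a raffinose synthase-type gene, had 804, 694 and 687 in JePS and 1543, 1743 and 2603 in jePS at 1 h, a response 4.29-fold higher (adjusted p 0.00046), with no overlap. AT1G29460, an auxin-responsive SAUR gene, differed by 3.16 ± 0.94 at 2 h, where the changes from 0 h were -6.18 in JePS and -3.01 in jePS. AT3G10720, a pectin methylesterase-type gene, rose to 5195, 6043 and 5291 in JePS and 8078, 7532 and 10330 in jePS at 1 h, and its response differed by 1.13 ± 0.30 at 1 h and 1.35 ± 0.30 at 5 h. At 9 h the response differed for GPAT4 (AT1G01610), an acyltransferase of cutin synthesis (1.55 ± 0.38), and for EXPA1 (AT1G69530), an expansin of cell wall loosening (1.48 ± 0.35). LACS1 (AT2G47240), an acyl-CoA synthetase of wax synthesis, had 37.5, 0 and 20.8 in JePS and 100, 87.6 and 94.7 in jePS at 18 h, a response difference of 2.29 ± 0.59 (not called with the block, 2.26). AT2G41170, an F-box protein gene, had the largest fitted value, 3.86 ± 0.87 at 18 h, where its JePS libraries held 3 counts in all. The jePS libraries held 35, and the ratio of levels was 8.38 (95% exact counting interval 2.64 to 42.6). The other genes of the naming rule, AT5G09770, AT1G66940, AT2G24240, AT3G11690, AT2G23890, PTI1-4, AT5G11070 and AT5G42420, had differences from 1.60 to 2.46 where they were called. Many of these calls needed all 3 replicates. The calls of LACS1 (1.79 to 2.77), GPAT4 (1.26 to 1.78), AT1G29460 (3.04 to 3.75), AT5G09770, AT2G24240, AT3G11690, AT2G23890 at 3 and 5 h, AT5G11070 and AT5G42420 were lost whichever replicate was left out. EXPA1 was lost without replicate 2 (0.87) or 3 (1.59), AT3G10720 at 5 h without replicate 1 (0.95) or 3 (1.60), PTI1-4 without replicate 1 or 2 (1.36), and AT1G66940 without replicate 2 or 3. DIN10 was lost without replicate 3 (1.70) and AT2G41170 without replicate 2 (2.89).

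Without the replicate block, the few tested genes of SA synthesis and its regulators that were called were higher in jePS. Of 14 genes of SA synthesis and its regulators, 11 passed the filter, 0 were called lower and 3 higher, all 3 at 2 h, beside 0.565% of all genes called higher then (DESeq2 called 2 higher and 0 lower, and edgeR with the block 4 and 1). The median log2 difference of the 11 was 0.88 at 2 h and -0.18 at 18 h. FMO1 (AT1G19250), a listed gene that did not pass the filter, was lower in jePS at 1 h. It had 68 counts in JePS against 3 in jePS, a ratio of 28.8 (95% exact counting interval 9.43 to 143, counting error only). SID2 (AT1G74710), the isochorismate synthase that starts SA synthesis, had 317, 115 and 286 in JePS and 2738, 509 and 1099 in jePS at 2 h, 2.57 ± 0.43. EDS1 (AT3G48090) had 314, 185 and 375 against 1559, 469.8 and 829.7, 1.69 ± 0.32, and its partner PAD4 (AT3G52430) 471, 185 and 359 against 2257, 374 and 591, 1.66 ± 0.48 (adjusted p 0.049). In SID2 and EDS1 all jePS libraries lay above all JePS libraries, whereas in PAD4 they overlapped. In all 3 genes replicate 1 of jePS was the highest library, and without replicate 1 neither EDS1 (1.19) nor PAD4 (0.80) was called; PAD4 was also lost without replicate 3 (1.99). All 11 genes were higher than at 0 h at some time point in both genotypes, as were 36.0% of all genes tested in each genotype.

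None of the tested transcripts downstream of SA was called higher. Of 13 SA outputs 6 passed the filter and none was called (edgeR; 6 with an unadjusted p under 0.05, 2 lower by DESeq2; with the block 3 were lower, PR2, WRKY54 and LURP1). The median log2 difference was -1.26 at 3 h. Under only the rule on the 15th highest count 7 more were fitted. Of these, 3 were called lower, WRKY62 (AT5G01900), WRKY38 and GRX480, and 0 higher, beside 548 of 12296 genes called lower at 1 or more time points in that fit. GRX480 (AT1G28480), a glutaredoxin gene induced by SA, had 552, 270 and 478 in JePS and 16.2, 10.7 and 6.45 in jePS at 1 h, -5.20 ± 0.69. WRKY62, a WRKY factor, had 188, 85.7 and 330.4 against 10.8, 7.14 and 19.4, -3.96 ± 0.71, and was lower from 1 to 18 h. In both genes the libraries of the genotypes were apart at 1 h. PR1 (AT2G14610), the usual SA marker, had 11920, 18480 and 8200 in JePS and 12590, 329 and 9125 in jePS at 9 h, with no call at any time point and a spread within jePS that covered the difference.

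Early flg22 marker genes were induced in both genotypes. Of 13 listed 12 passed the filter, and all 12 were higher than 0 h in JePS and in jePS, as were 36.0% of all genes tested in each genotype. FRK1 (AT2G19190), the flg22-induced receptor-like kinase, had 5472, 2082 and 4922 in JePS and 4535, 1800 and 3632 in jePS at 3 h, overlapping and not called. MPK3 (AT3G45640), a kinase of the flg22 cascade, was the 1 gene called, at a time point with 0.565% of all genes called higher, 1144, 940.4 and 925 against 2651, 1975 and 1507 at 2 h, 1.03 ± 0.23, a difference of 0.99 and no call with the block, and no call without replicate 1 (0.90) or 2 (1.01).

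**Figure D4:**
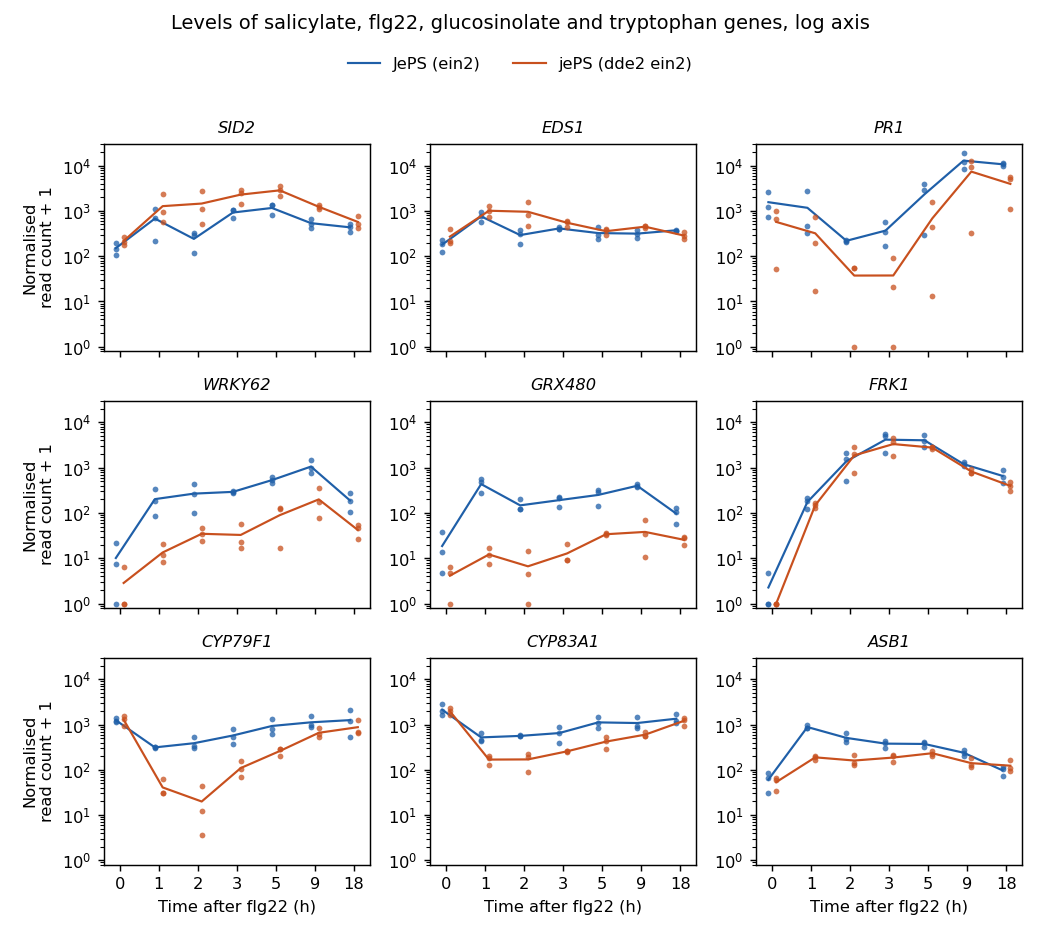
Normalised read count plus 1 (log axis) of 9 salicylate, flg22-induced, glucosinolate and tryptophan genes against time after flg22 (h) in JePS (blue) and jePS (orange), with 3 libraries as dots and their mean as a line. FRK1 rises in both genotypes, SID2 and EDS1 lie higher in jePS at 2 h, and CYP79F1 dips at 1 and 2 h in jePS.

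Genes for aliphatic glucosinolates, which start from methionine, fell after flg22 in both genotypes and fell further in jePS. Of 12 listed, 11 passed the filter, and 10 were below 0 h in JePS and 11 in jePS at some time point, beside 45.0% and 44.0% of all genes tested. At 0 h the median difference between the genotypes was -0.05. From 1 to 5 h it was -1.64, -1.37, -1.35 and -1.29, with 7, 5, 4 and 6 genes called lower (beside 2.52%, 2.2%, 1.49% and 1.21% of all genes), and at 18 h it was -0.08 with 0 called. In all, 8 of 11 were called lower and 0 higher (8 and 0 by DESeq2), beside 3.87% and 1.38% of all genes, and the response was lower in 5, beside 1.28%. CYP79F1 (AT1G16410), the cytochrome P450 that commits chain-elongated methionine, had 1167, 1409 and 1153 in JePS and 1343, 1550 and 944 in jePS at 0 h. At 2 h it had 296, 525 and 334 and 2.70, 11.3 and 42.9, -4.06 ± 0.66, and the lowest JePS library was above the highest jePS library. BCAT4 (AT3G19710), the aminotransferase of the first step, had 509, 502 and 347 against 56.8, 169.8 and 72.0 at 2 h, -2.28 ± 0.38. CYP83A1 (AT4G13770), the next P450, had 548, 554 and 577 against 89.2, 226 and 190.3, -1.75 ± 0.33, and MAM1 (AT5G23010), a chain elongation synthase, -1.67 ± 0.29. The factors MYB28 and MYB29 and the sulfotransferase gene SOT17 were not called (with the block MYB29 was lower at 3 h). CYP79F1 and CYP79F2 are near copies, so their split of reads is uncertain.

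Tryptophan and indole glucosinolate genes mostly rose after flg22, 11 of 14 in each genotype, beside 36.0% of all genes tested in each. They were lower in jePS at the start of that rise. Of 15 listed, 14 passed the filter and 9 were called lower at 1 h, 7 at 2 h and 1 at 3 h, beside 2.52%, 2.2% and 1.49% of all genes tested. Their median difference was -1.59 at 1 h, -0.94 at 2 h and -0.65 at 3 h. With the block 11 were lower and 1 was higher, MYB51. The response was lower in 6, beside 1.28% of all genes tested, and in 9 with the block, beside 315 of all genes. ASB1 (AT1G25220), a subunit of anthranilate synthase, had 978, 827 and 830.4 in JePS and 195, 164 and 203 in jePS at 1 h, -2.23 ± 0.28. CYP83B1 (AT4G31500), the P450 that channels indole oximes to glucosinolates, had 11460, 9189 and 9622 against 3892, 3136 and 3023, -1.59 ± 0.24, and still rose from 0 h in jePS (2.33 ± 0.25). MYB34 (AT5G60890), a factor of this pathway, had 123, 103 and 152 against 13.5, 0 and 29.0, -3.08 ± 0.54. In these 3 genes the libraries of the genotypes were apart at 1 h. PAT1, ASA1, TSA1 (AT3G54640), TSB2, CYP79B3 and SOT16 were lower at 1 h, with log2 differences from -1.54 to -2.54 (TSB1 and TSB2 are near copies, and CYP79B3 was not called without replicate 3, -1.42). PAD3 (AT3G26830), the last enzyme of the indole phytoalexin camalexin, had 412, 129 and 326 against 54.0, 7.14 and 32.3 at 1 h, -3.15 ± 0.59. It was lower at this time point alone and was the 1 of 3 listed camalexin genes that passed the filter. Under only the rule on the 15th highest count 1 more was fitted, and it was called higher in jePS. Neither the 1 flavonoid gene nor the 5 clock genes tested were called (edgeR; 0 and 2 with an unadjusted p under 0.05, 0 by DESeq2; with the block LUX was higher at 18 h).

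Outside the lists, 4 of the genes lower at 4 or more time points are given next. They were named by the size and duration of the level difference alone, and their differences are a description. AT1G52000, a jacalin-type lectin gene, was apart already at 0 h, with 359, 289 and 232 in JePS and 13.0, 19.2 and 11.1 in jePS, -4.22 ± 0.67. NSP1 (AT3G16400), which directs glucosinolate breakdown to nitriles, had 186, 117 and 167 against 3.09, 0 and 0 at 5 h, 157 counts against 1 and a ratio of 154 (95% exact counting interval 27.3 to 6130). BGLU18 (AT1G52400), a β-glucosidase of ER bodies (compartments that store such enzymes), had 1722, 1950 and 1239 against 56.8, 150 and 19.4 at 1 h, -4.46 ± 0.73, and AT1G52410, close to it on chromosome 1 and an ER body protein gene, 330.4, 238 and 328 against 8.18, 4.00 and 19.1 at 3 h, -4.97 ± 0.66. In none of these 4 genes did the genotypes overlap at the time given.

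The 4 genes higher at 4 or more time points were unlike each other. MRD1 was near 0 in JePS and variable in jePS, with 6.98, 0 and 4.66 against 165, 39.6 and 137 at 2 h, 4.64 ± 0.95. QQS (AT3G30720), a gene that affects starch content, had 78.3, 53.2 and 89.2 against 163, 246 and 267 at 0 h, 1.60 ± 0.42. LACS1 had 422, 288 and 300 against 797, 623 and 638 at 2 h, 1.03 ± 0.24. SPD1 (AT3G10420), a gene of plastid development, had 156, 122 and 116 in JePS and 567, 665 and 717 in jePS at 0 h, 2.33 ± 0.32. In JEPS it had 500, 786 and 637 and in jEPS 481, 614 and 988, so JePS was the genotype that stood apart, lower than the other 3.

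The last question was whether losing DDE2 did something else here than when EIN2 was intact. In the latter case 468 genes were called lower (3.95%) and 123 higher (1.04%). From 0 to 18 h, 0.203%, 2.1%, 1.76%, 1.4%, 0.928%, 0.625% and 0.861% of the genes tested were lower and 0.076%, 0.456%, 0.236%, 0.354%, 0.0591%, 0.0675% and 0.0422% higher. In all, 310 of the lower genes were called in both, 67.7% of those found without EIN2 and 66.2% of those found with it. Among higher genes 37 were shared, 22.7% and 30.1%. Across genes, which are not independent replicates, log2 differences of the 2 comparisons correlated with r = 0.0924 at 0 h, between 0.355 (9 h) and 0.716 (2 h) in the hours between, and 0.0497 at 18 h. The 90 genes lower at 4 or more time points, chosen on jePS against JePS, had median differences of -2.97 at 1 h and -1.95 at 9 h there, and of -2.58 and -1.47 in jEPS against JEPS.

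The difference between the 2 effects was tested directly, and 9 of 11848 genes were called, 2 with a lower value when EIN2 was lost (0.0169%) and 7 with a higher one (0.0591%). Time point by time point, 1 gene was called lower at 3, 5 and 18 h each (0.00844%), and 1 (0.00844%) and 6 (0.0506%) were called higher at 0 and 18 h. An unadjusted p under 0.05 at some time point was found for 2594 genes, and with the replicate block 149 genes were called, with all 9 among them. Without replicate 1 the count was 0, and without replicate 2 it was 2. No gene of the JA, SA, flg22 or glucosinolate lists was among the 9 called without the block (edgeR). Which of the 149 genes called with the block stood on these lists is not given here. Of the JA biosynthesis genes 5 of 15, and of the JA breakdown genes 4 of 5, had an unadjusted p under 0.05 at some time point. Of the SA outputs 6 of 6, and of the tryptophan and indole genes 11 of 14, had one, beside 2594 of all 11848 genes. The median of the tryptophan and indole list at 3 h was -0.65 without EIN2 and 0.75 with it. For the SA outputs the median at 3 h was -1.26 without EIN2 and 0.59 with it.

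**Figure D5:**
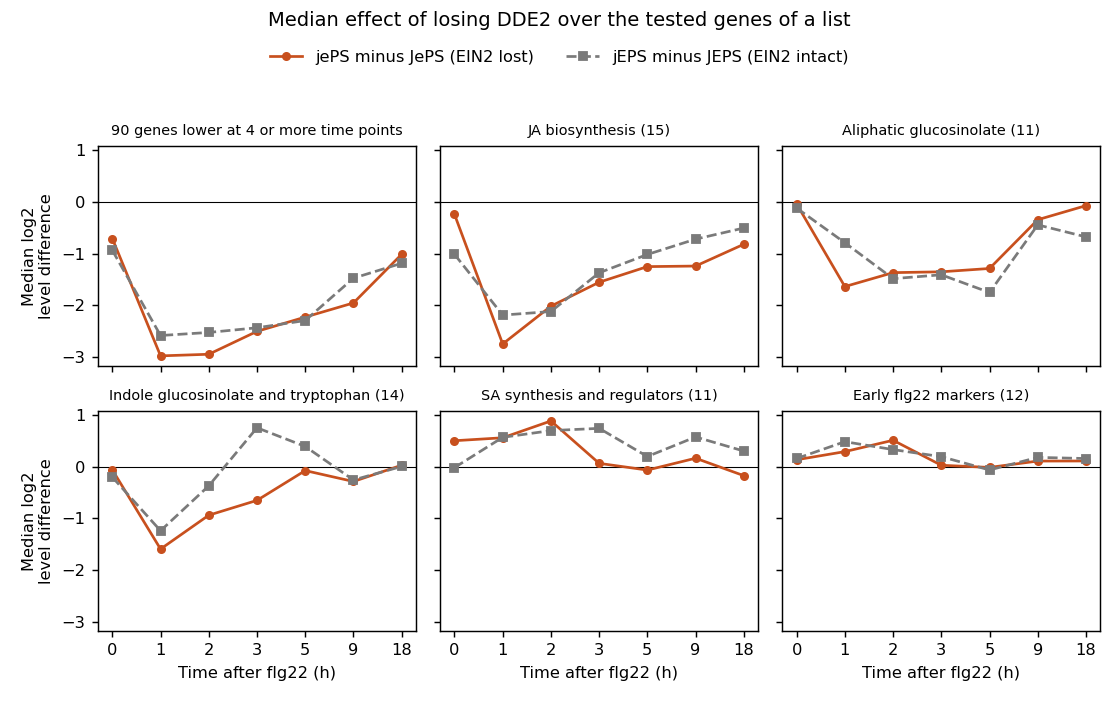
Median log2 level difference for the loss of DDE2 (y axis) against time after flg22 (h) when EIN2 is lost (orange circles) and when it is intact (grey squares), over the tested genes of each list, whose number stands in the title of the panel. Both lines drop at 1 h in the first 4 panels (to -2.97 and -2.58 for the 90 genes), and they stay within 1 of 0 for the SA synthesis and early flg22 lists.

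Opposite effects in the 2 backgrounds were measured for AT3G29240. At 5 h it had 1404, 1160 and 677 in JePS and 241, 530.1 and 603 in jePS, -1.24 ± 0.28, and 541, 694 and 374 in JEPS and 1126, 1971 and 1238 in jEPS, 1.43 ± 0.28. The jePS libraries were all below those of JePS and the jEPS libraries all above those of JEPS. The effects differed by -2.66 ± 0.40 (adjusted p 2.6e-05), and by -2.36 ± 0.42 at 3 h. At 18 h, the time point with most calls, AT4G24350, a phosphorylase family gene, had 60.0, 35.6 and 54.2 in JePS and 61.1, 53.9 and 31.6 in jePS, overlapping, and 82.3, 76.3 and 42.5 in JEPS against 4.69, 1.61 and 9.23 in jEPS, apart. From 1 to 9 h it had been lower in jePS, down to -3.32 at 5 h. FUM2 (AT5G50950), a cytosolic fumarase gene, had 712, 681 and 658 and 706, 1028 and 584 at 18 h, overlapping, against 314, 198 and 330 and 103, 33.9 and 90.0, apart. Without replicate 1 or 2 neither gene was called, with differences of 3.36 and 2.49 for AT4G24350 and 2.40 and 1.66 for FUM2. None of the 9 genes, AT3G29240 included, was called without replicate 1, and 1 of the 9 was called without replicate 2.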

How the data were processed

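Leaf RNA was sequenced by Tag-Seq, which gives stranded reads near the polyA end of a transcript. Per the labels and the study's methods, the authors trimmed internal barcodes, removed homopolymer reads with the fastx Artifacts Filter, mapped with Bowtie 0.12.8 to TAIR10 transcripts, and deposited raw counts of uniquely mapped forward-strand reads summed over a gene's transcripts (33600 genes, 357 libraries). Unique mapping lowers counts of near-identical genes. Counts were divided by the library's 90th percentile over 26275 genes with any read, relative to 300.

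Tests followed the study's design: 1 mean per genotype and time point over 119 groups, the percentile as offset, and genes with fewer than 50 libraries at 0 and a 15th highest count above 25, here by edgeR 4.0.16 (quasi-likelihood, prior count 0.125, R 4.3.3), with Storey q pooled over time points (equal to Benjamini-Hochberg values between genotypes, but not for changes from 0 h, with null shares of 0.344 and 0.34) under 0.05 and an absolute log2 above 1. These filter rules are as read from the study's methods, and the genes they left here (11848) are not the study's own set. The rule on libraries at 0 counts all 17 genotypes, so it drops JA genes near 0 in every dde2 line. Those are given from a fit under only the rule on the 15th highest count (12296 genes), or, with no read in a group, as a bound against 3 counts over the group. DESeq2 1.42.0, TMM, the filters, left-out replicates, sequencing lanes and smaller sets of libraries were alternatives. A filter set on the 42 libraries (10 or more counts in 3) was chosen after seeing the data. The code was tested on simulated data.

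Replicate numbers mark shared experiments. Deviations from group means correlated at 0.12 to 0.54 in 21 of 21 same-numbered pairs (median 0.31), against a median of -0.17 in 42 others, so the numbers paired the libraries. The ein2 and dde2 ein2 plants stood in different pots, infiltrated about 10 min apart per the study's methods, and pot and genotype cannot be told apart. Lists and members were chosen with earlier results of these data known. Named genes were the list members, up to 10 per direction called at 4 or more time points (largest mean difference), 3 responses per direction and time point without overlap, and, for the difference between backgrounds, 5 per direction at the time point with most calls. Depth was 549986 to 2714817 reads, and no 2 libraries were duplicates. Gene positions and starts are from TAIR10.1 (RefSeq), which held 32835 of the gene codes. Pandas 2.3.3, NumPy 2.4.6 and SciPy 1.17.1 were used under Python 3.11.15. Hormone measurements were not used here.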

Additional observations from a re-analysis of the deposited data

Results flagged for a closer look

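For 9 genes the effect of losing DDE2 differed between plants without and with EIN2 (edgeR's quasi-likelihood test of the difference itself, adjusted p under 0.05, replicates 3 per group), at 10 combinations of gene and time point. SPD1 differed at 0 h by 2.22 on the log2 scale, with 2.33 for jePS minus JePS and 0.11 for jEPS minus JEPS. AT3G29240 differed by -2.36 at 3 h and -2.66 at 5 h, with -1.74 and -1.24 without EIN2 and 0.61 and 1.43 with it. At 18 h AT5G52280 differed by 4.57, AT4G24350 by 3.57, AT1G75900 by 3.05, FUM2 by 2.15, RPL9 by 1.55, KASI by 1.51 and AT2G07180 by -1.49. For AT5G52280 the effects were 1.98 and -2.60, for AT1G75900 0.87 and -2.19, for RPL9 0.35 and -1.20, for KASI 1.05 and -0.46, and for AT2G07180 -0.40 and 1.09. All 9 genes were also called with the replicate block over the 84 libraries of the 4 genotypes. The same 84 libraries without the block kept 2 of the 9. Of the 9, 0 were called without replicate 1, 1 without replicate 2 and 5 without replicate 3. With groups of 3 libraries no single library was tested as standing apart.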

How the results depend on the processing

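Directions held in all alternatives, with 1 exception among the named genes (FUM2 at 5 h, 0.06 with only pairs that shared a sequencing lane); the cause was not tested. Leaving out a replicate gave 286 to 397 lower and 47 to 109 higher levels, 63 to 84 lower and 4 to 12 higher responses, and 0 to 8 genes whose DDE2 effect differed between backgrounds, with fewer libraries tested each time. The lowest counts came without replicate 1 for levels and for the difference between backgrounds (0 by edgeR, against 9 with all replicates, where 2594 genes had an unadjusted p under 0.05), and without replicate 3 for responses. With the replicate block, which was fitted to fewer libraries (42, or 84 for the difference between backgrounds), there were 434 higher and 678 lower levels, 315 lower and 150 higher responses, and 149 genes that differed between backgrounds. The block kept 453 of 458 lower and 155 of 163 higher levels and 147 of 152 and 24 of 27 responses. Without a filter on low counts the higher levels numbered 369, the lower levels 686, the higher responses 50 and the differences between backgrounds 103. Only pairs that shared a lane gave 100 higher levels and 12 higher responses, with 1 pair left at 5 h. Fitting only the 42 libraries without the block gave 395 lower and 112 higher levels and 108 lower and 7 higher responses, and fitting only the 84 gave 2 differences between backgrounds. TMM, DESeq2, Benjamini-Hochberg, the rule on the 15th highest count and the filter chosen after seeing the data kept every one of these counts within 1.5 times. Of 120 calls named by gene and time point, 113 held with TMM, 99 of 114 with DESeq2, 107 of 114 with the block, 82 of 114 with shared lanes and 76 to 79 without 1 replicate. Median shifts over all genes stayed under 0.1 on the log2 scale. Depth limits genes near 0 in a genotype. Bounds are given for levels where a group had no read, and a counting interval for levels where it had 1 to 3 counts, since fitted values of such genes depend on the prior count. Fitted responses that rest on such counts, among them those of JAZ1, MYB74 and AT2G41170, share this limit.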
